A study of Mus musculus with 6 samples.

Results

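The genes described here encode intermediate filament proteins of muscle and nerve and the protein that ties such filaments to other structures. They are 8 genes of the 25308 with a count in these libraries, namely Des, Vim, Nes, Synm, Sync, Nefl, Nefm and Plec. They were listed by name, and the list was chosen on measured differences between the groups compared below, so that their levels and fold changes are given as a description with no test. The libraries were made from poly(A) RNA of C2C12, an established line of mouse muscle precursors whose cells stop dividing and join into fibers with many nuclei when serum is withdrawn. Each of 3 groups held 2 libraries. Myoblasts were harvested when nearly confluent and before differentiation. Myotubes and reserve cells, the mononucleated cells that did not fuse, came from cultures kept for 7 days in medium with 2% horse serum and were parted by mild trypsinization. The study's cell culture methods give a shorter time for mature myotubes, and the 7 days are those of the series' design text. All groups come from a single immortal line, so the replicates, which the submitters call biological, are cultures of that line and not animals.

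Library totals lay between 15658875 and 20055078 estimated counts. A set of 6 myotube genes (Myog, Mymk, Ckm, Acta1, Myh3 and Tnnt3) summed to 228 to 240 counts per 1000000 (CPM) in myoblasts, 20640 in both myotube libraries and 6120 to 6221 in reserve cells. The reserve cell libraries thus held myotube transcripts, and their part in each reserve cell value below was not tested. In these bulk libraries fewer cells of a type and less RNA per cell cannot be told apart. Markers of glia (at most 2.57 CPM summed over 6 genes) and of endothelial cells and leukocytes (at most 3.91 CPM over 6 genes) were near 0 in every library. The sum of 7 fibroblast markers, collagen genes in the main, was 3442 to 3447 CPM in myoblasts, 783 to 786 CPM in myotubes and 4047 to 4178 CPM in reserve cells.

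Intermediate filaments are ropes of coiled-coil proteins that give cells tensile strength, and each cell type builds them from its own mixture of subunits. Dividing muscle precursors are known for filaments of vimentin and nestin, and muscle fibers for filaments of desmin that ring the Z-discs and link them to each other, to the membrane and to nuclei. Synemin and syncoilin join desmin-containing filaments and help to bind them to the dystrophin complex, neurofilament subunits fill the axons of nerve cells, and plectin is a giant linker whose alternative first exons give it different heads for binding at different places in the cell.

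The alternative heads of Plec matter for the transcript shares described below, so the coding bases of 4 of its first exons are shown here. They were read from the GENCODE M21 transcripts, they lie on the minus strand of chromosome 15 of GRCm38, the assembly of mm10, and the start codon is in capitals. The first exon of Plec-206 codes at chr15:76229358-76229442, that of Plec-218 (shared with Plec-202) at chr15:76199549-76199660, that of Plec-204 at chr15:76197980-76198112 and that of Plec-201 at chr15:76195424-76195535.
Plec-206: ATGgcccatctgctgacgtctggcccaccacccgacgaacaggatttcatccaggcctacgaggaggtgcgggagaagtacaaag
Plec-218: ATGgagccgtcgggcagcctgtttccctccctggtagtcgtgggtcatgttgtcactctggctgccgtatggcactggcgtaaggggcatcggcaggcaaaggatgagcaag
Plec-204: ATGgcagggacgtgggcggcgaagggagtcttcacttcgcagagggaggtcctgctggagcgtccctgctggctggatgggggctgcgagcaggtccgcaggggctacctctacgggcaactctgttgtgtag
Plec-201: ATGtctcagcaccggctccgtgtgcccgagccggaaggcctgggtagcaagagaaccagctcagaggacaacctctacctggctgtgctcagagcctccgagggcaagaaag

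For Des, Synm and Sync, the members with the largest increases in myotubes, the 250 bases before the RefSeq start (GRCm38.p6) are shown with each E-box, the CANNTG core bound by the myogenic factors of the MyoD family among many others, in capitals. The windows are chr1:75360042-75360291 on the plus strand for Des, chr7:67759743-67759992 on the minus strand for Synm and chr4:129287371-129287620 on the plus strand for Sync.
Des: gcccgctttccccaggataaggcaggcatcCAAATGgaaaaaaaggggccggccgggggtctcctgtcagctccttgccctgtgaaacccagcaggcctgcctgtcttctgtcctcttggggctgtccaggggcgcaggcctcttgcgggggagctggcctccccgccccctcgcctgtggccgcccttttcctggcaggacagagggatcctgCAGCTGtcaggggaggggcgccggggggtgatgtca
Synm: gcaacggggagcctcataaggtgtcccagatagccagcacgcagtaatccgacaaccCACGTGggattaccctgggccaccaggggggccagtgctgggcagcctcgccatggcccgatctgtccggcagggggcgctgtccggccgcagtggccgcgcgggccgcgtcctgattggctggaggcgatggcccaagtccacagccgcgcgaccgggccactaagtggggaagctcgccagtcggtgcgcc
Sync: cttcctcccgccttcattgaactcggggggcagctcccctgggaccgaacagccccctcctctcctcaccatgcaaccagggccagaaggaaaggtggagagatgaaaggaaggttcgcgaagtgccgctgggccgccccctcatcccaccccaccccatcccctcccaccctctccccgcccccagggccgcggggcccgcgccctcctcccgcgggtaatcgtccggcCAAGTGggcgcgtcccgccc

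RefSeq windows were found for 5 of the 8 members (Des, Vim, Nes, Synm and Sync). Des had an E-box starting 220 bases and another 36 bases before its start, the latter with the letters CAGCTG. Synm had 1 that began 193 bases before the start (CACGTG) and Sync had 1 at 20 bases (CAAGTG), whereas the windows of Vim and Nes had none. An E-box was present in 66.2% of 32817 promoter windows of this length and CAGCTG in 13%, so these matches are a description and not sites. CANNTG and CAGCTG read the same on both strands, and every CAGCTG is also a CANNTG. The MEF2 and CArG motifs, sought on both strands and held by 2.92% and 1.47% of all windows, were found in none of the 5 windows.

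The members fell into 3 kinds of profile. Des, Synm, Sync and Nes were highest in myotubes and lowest in myoblasts, Vim had the opposite order, and Nefl and Nefm were found almost only in myoblasts. Plec as a whole differed little. Levels are given below in CPM after scaling by trimmed mean of M-values (TMM), and fold changes are edgeR's fitted values on those counts. Their 95% intervals were worked back from its test statistic. That scaling moves values relative to library totals. With library totals the median gene had a log2 fold change of −0.27 for myotubes over myoblasts, −0.06 for reserve cells over myoblasts and −0.21 for myotubes over reserve cells, against 0, 0.01 and −0.01 with TMM. Differences smaller than these shifts depend on the scale.

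**Figure D1:**
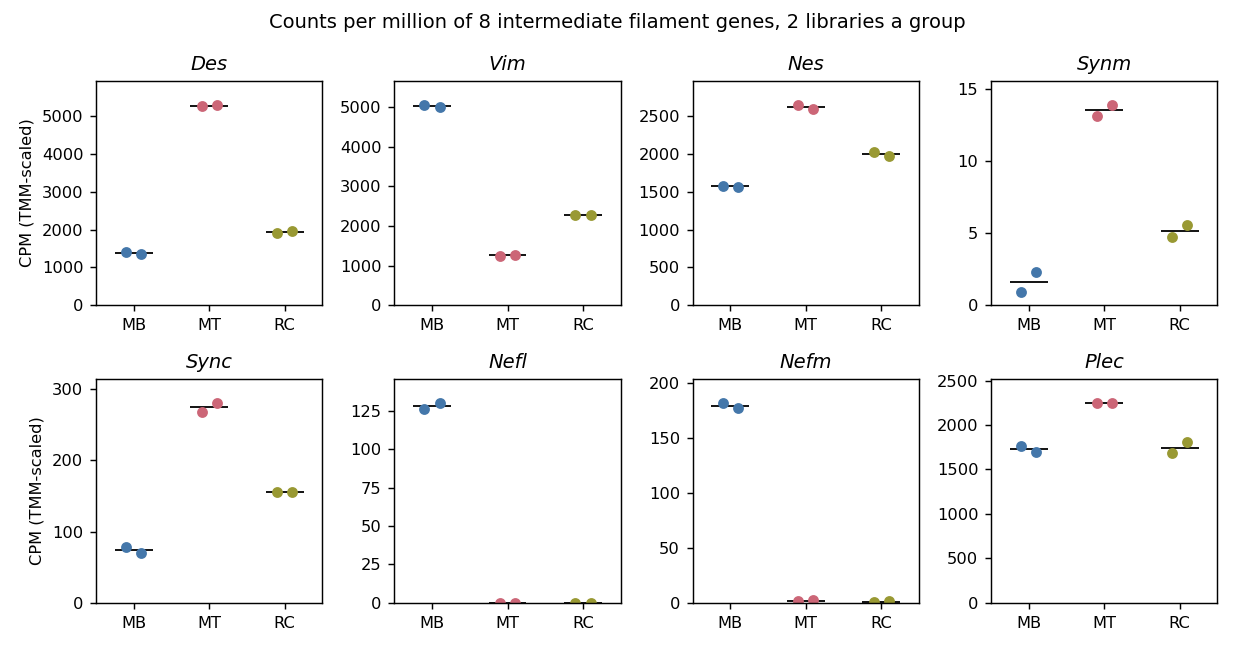
Levels (CPM, TMM-scaled) of the 8 members in myoblasts (MB), myotubes (MT) and reserve cells (RC). Points are single libraries, bars the mean of 2, and each panel has its own linear axis from 0. Des and Vim change places between MB and MT, and Nefl and Nefm sit near 0 outside MB.

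Desmin (Des, chr1:75360329-75368579, plus strand) is the muscle-specific filament protein. Its level was 1403 and 1355 CPM in the myoblast libraries, 5263 and 5289 CPM in myotubes, and 1906 and 1949 CPM in reserve cells. The groups did not overlap, and the myoblasts already held a substantial level. Des was 3.83-fold higher in myotubes than in myoblasts (log2 1.94, 95% interval 1.87 to 2), 1.4-fold higher in reserve cells than in myoblasts (log2 0.48, 0.42 to 0.54) and 2.74-fold higher in myotubes than in reserve cells (log2 1.45, 1.39 to 1.51). Nearly all of its counts were from Des-201, at 99.8% to 99.9% in each library.

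Vimentin (Vim, chr2:13573927-13582826, plus strand), the filament protein of mesenchymal and dividing precursor cells, had 5052 and 5002 CPM in myoblasts, 1253 and 1279 CPM in myotubes, and 2269 and 2272 CPM in reserve cells. The groups were again apart, in the reverse order of Des. Vim was 3.97-fold lower in myotubes than in myoblasts (log2 −1.99, −2.05 to −1.93), 2.21-fold lower in reserve cells than in myoblasts (log2 −1.15, −1.2 to −1.09) and 1.79-fold lower in myotubes than in reserve cells (log2 −0.84, −0.9 to −0.79). Vim-201 held 97.2% to 99.3% of its counts.

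The fibroblast markers did not all share the order of Vim. Of the 6 that were tested, 3 were higher in reserve cells than in myoblasts (Col1a1, Col3a1 and Dcn), 1 was lower (Pdgfra) and 2 were not called, Col1a2 among them. Of all genes tested, 24.3% were higher and 21.8% lower in that comparison. Pdgfra, a growth factor receptor of fibroblasts, had the order of Vim, with 18.5 and 18.7 CPM in myoblasts, 10.6 and 9.57 CPM in reserve cells, and 7.82 and 8.54 CPM in myotubes. Its difference between myotubes and reserve cells was not called (log2 −0.3, adjusted p = 0.127, edgeR). In myotubes against myoblasts 4 of the 6 were lower and 0 higher, where 32.7% of all genes tested were lower and 32.6% higher. The sum of the list was carried by Col3a1 and Col1a2, which had 2040 and 2047 CPM and 1261 and 1253 CPM in myoblasts. A set of 4 genes of dividing cells (Mki67, Top2a, Ccnb1 and Ccna2) had the order of Vim, with 1527 to 1540 CPM in myoblasts, 597 to 612 CPM in reserve cells and 112 to 124 CPM in myotubes. The part of either in the level of Vim was not tested.

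Nestin (Nes, chr3:87971078-87980451, plus strand), a large filament protein of neural and muscle precursors that assembles with vimentin or desmin, had 1577 and 1565 CPM in myoblasts, 2646 and 2596 CPM in myotubes, and 2029 and 1967 CPM in reserve cells. It thus did not fall with Vim. Nes was 1.67-fold higher in myotubes than in myoblasts (log2 0.74, 0.68 to 0.8) and 1.27-fold higher in reserve cells than in myoblasts (log2 0.35, 0.28 to 0.41). Myotubes were 1.31-fold above reserve cells (log2 0.39, 0.33 to 0.45), but this last difference depends on the scale. It was 0.19 on the log2 scale with library totals, and on a per-length scale (TPM, defined below) the libraries of both groups overlapped, at 808 and 804 TPM in myotubes and 814 and 801 TPM in reserve cells. Its counts were split between Nes-201, at 44% to 61.4% of the gene, and Nes-203, at 38.5% to 55.9%. The myotube libraries lay 13.4 percentage points apart in this split, further than the group means, so no difference between the groups in this split was detectable with 2 libraries each.

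Synemin (Synm, chr7:67730160-67759742, minus strand), a filament protein that cannot form filaments without a partner such as desmin or vimentin, had few reads. The myoblast libraries held 16 and 50 estimated counts, the myotube libraries 185 and 239 and the reserve cell libraries 94 and 108. These counts correspond to 0.933 and 2.3 CPM in myoblasts, 13.1 and 13.9 CPM in myotubes, and 4.74 and 5.59 CPM in reserve cells, with no overlap between groups. Synm had the largest relative increase of the members, 8.17-fold in myotubes over myoblasts (log2 3.03, 2.18 to 3.88). It was 3.12-fold higher in reserve cells than in myoblasts (log2 1.64, 0.79 to 2.49) and 2.62-fold higher in myotubes than in reserve cells (log2 1.39, 0.61 to 2.16). The size of the increase rests on the myoblast libraries. Without myoblast replicate 2 the log2 change was 3.84 for myotubes and 2.46 for reserve cells, and without myoblast replicate 1 it was 2.54 and 1.16. Of its 5 annotated transcripts 2 had counts. Synm-201 held 79.5% and 74.1% of the counts in myotubes and 68.1% and 55.6% in reserve cells, while in myoblasts the shares of 0% and 72% rest on 16 and 50 counts. Synm lies within Ttc23 on the opposite strand, and 1.06% of its exon bases are also exon bases of that gene.

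Syncoilin (Sync, chr4:129287617-129308559, plus strand), which binds desmin and α-dystrobrevin, had 78.8 and 70.3 CPM in myoblasts, 268 and 280 CPM in myotubes, and 156 and 155 CPM in reserve cells. The order of the groups was that of Des, with a higher step in reserve cells. Sync was 3.68-fold higher in myotubes than in myoblasts (log2 1.88, 1.73 to 2.03), 2.08-fold higher in reserve cells than in myoblasts (log2 1.06, 0.91 to 1.21) and 1.76-fold higher in myotubes than in reserve cells (log2 0.82, 0.67 to 0.97). The 3′ end of Sync overlaps Rbbp4 on the other strand over 27.3% of the Sync exon bases, and Rbbp4 had 5897 to 8563 counts per library. Whether the libraries kept strand is not given in the sources used here, so reads of these genes cannot be told apart there. Sync-202, which keeps an intron and ends within that overlap, held 3.79% to 18% of the Sync counts. With protein-coding transcripts alone, which leaves out Sync-202, the log2 changes were 1.91, 1.18 and 0.73 in the same order.

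**Figure D2:**
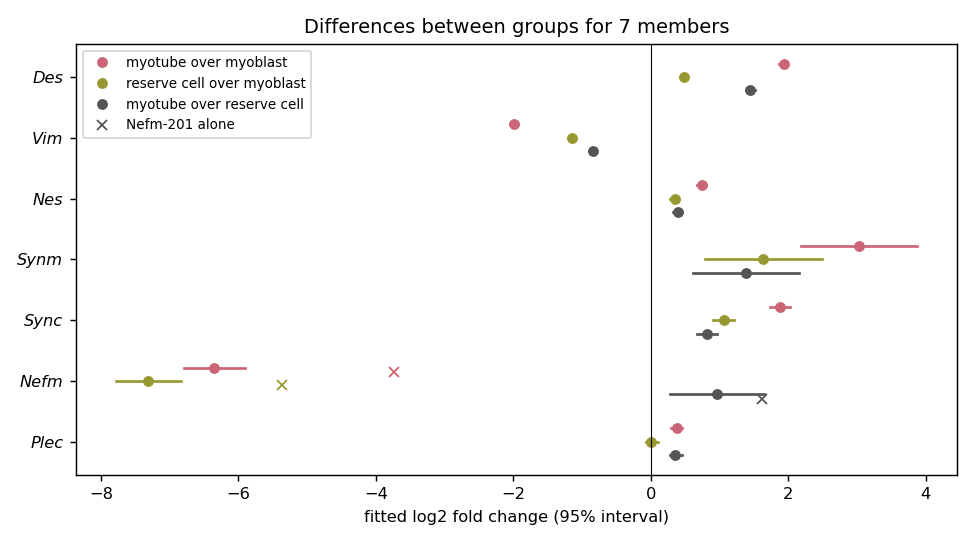
Fitted log2 fold changes of 7 members (Nefl is left out for its counts near 0) in the 3 comparisons, with 95% intervals as lines. Crosses mark Nefm computed from Nefm-201 alone. Des, Nes, Synm and Sync lie right of 0 in all 3 comparisons and Vim left of it, and the Plec value of reserve cells over myoblasts is 0.01.

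Compared per length, the make-up of the filament transcripts differed in each group. For this, counts were divided by transcript length and scaled to the same total in each library (TPM, transcripts per 1000000), a scale on which genes can be set side by side. In myoblasts Vim led with 5725 and 5701 TPM, followed by Des with 1150 and 1115 TPM and Nes with 649 and 645 TPM. In myotubes Des led with 3216 and 3269 TPM, ahead of Vim with 1061 and 1095 TPM and Nes. In reserve cells Vim, at 2509 and 2547 TPM, was still ahead of Des, at 1523 and 1585 TPM.

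The ratio of Des to Vim in TPM was 0.201 and 0.196 in myoblasts, 0.607 and 0.622 in reserve cells, and 3.03 and 2.98 in myotubes. Of the summed TPM of the 7 filament genes (Plec is a linker), Vim made up 73.1% and 73.4% in myoblasts, 49.9% and 49.7% in reserve cells and 19.9% and 20.2% in myotubes. Des made up 14.7% and 14.4%, 30.3% and 30.9%, and 60.4% and 60.2% in the same order. Nes accounted for 8.28% and 8.31% of the sum in myoblasts and for 14.8% to 16.2% in the libraries of the other 2 groups. Sync was at 1.08% to 1.21% in myoblasts, 4.46% to 4.7% in myotubes and 3.61% to 3.63% in reserve cells. Synm stayed below 0.1% in each library. The sum itself was 7834 and 7762 TPM in myoblasts, 5327 and 5428 TPM in myotubes, and 5031 and 5121 TPM in reserve cells. On this scale Vim, Nefl and Nefm were lower outside myoblasts, and Des, Nes, Sync and Synm were higher. TPM carry no TMM factor, and these factors were 1.086 and 1.082 in myoblasts and 0.899 and 0.889 in myotubes. Differences between groups in TPM, the sum included, therefore need not match those in CPM in size.

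**Figure D3:**
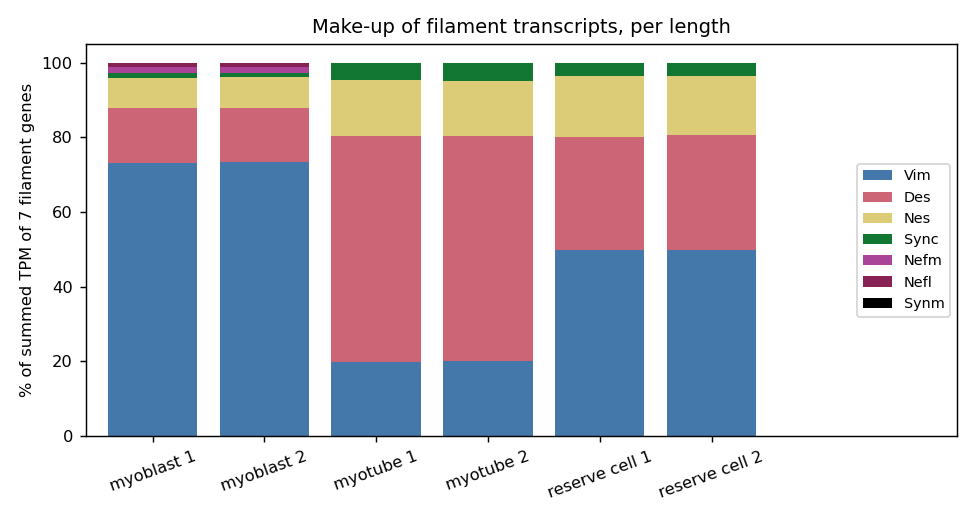
Share of each of 7 filament genes in their summed TPM, in percent, for each of the 6 libraries. Vim takes 73.1% and 73.4% in myoblasts and Des 60.4% and 60.2% in myotubes, with reserve cells between them.

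The neurofilament genes were the members most nearly confined to 1 group. Nefl (chr14:68083863-68089095, plus strand), the light subunit on which neurofilaments are built, had 2166 and 2825 counts in myoblasts (126 and 130 CPM), 2 and 0 counts in myotubes, and 0 and 3 counts in reserve cells. In TPM the myoblast libraries held 92.4 and 95.5, about the level of Sync in the same cells. The ratio of depth-scaled counts, myoblasts over myotubes, was 2009 with an interval of 556 to 16590, and that of myoblasts over reserve cells was 1677 with an interval of 573 to 8133. Both intervals are 95% and cover counting error only. No fold is given between myotubes and reserve cells, which had 2 and 3 counts in all.

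Nefm (chr14:68082590-68124846, minus strand), the medium subunit, had 3117 and 3837 counts in myoblasts (182 and 177 CPM), 25 and 44 in myotubes (1.78 and 2.56 CPM), and 15 and 29 in reserve cells (0.756 and 1.5 CPM). Summed over its transcripts it was 81.3-fold lower in myotubes than in myoblasts (log2 −6.35, −6.79 to −5.91) and 158-fold lower in reserve cells than in myoblasts (log2 −7.31, −7.78 to −6.84). Most of the myoblast counts were assigned to a transcript that overlaps Nefl. Nefm-202 held 85% and 82.3% of the Nefm counts in myoblasts, with 2649 and 3158 counts, but 0 and 0 counts in myotubes and 3 and 13 in reserve cells. Its last exon, chr14:68082590-68084970, shares 1108 bases with the opposite-strand first exon of Nefl, chr14:68083863-68085009, which is 96.6% of that Nefl exon.

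Because strand is not stated, the reads of Nefl and Nefm-202 cannot be told apart in these shared bases. Nefm-201, whose last exon begins 30.2 kb beyond the end of Nefl, has no such overlap. It had 468 and 679 counts in myoblasts, 25 and 44 in myotubes, and 12 and 16 in reserve cells. The counts assigned to Nefm-201 alone, a reading added after the data were seen, were 13.4-fold lower in myotubes than in myoblasts (interval 10.5 to 17.3, counting error only). In reserve cells they were 41.3-fold lower (28.4 to 62.4). Exons 1 and 2 of Nefm-201 have the same coordinates as those of Nefm-202, so these counts depend on how reads were divided between both transcripts. The intervals do not cover that division. In myoblasts Nefm-201 was at 20.2 and 23.3 TPM, against 124 and 121 TPM for the summed gene. Myotubes were 1.95-fold above reserve cells for the summed gene (log2 0.96, 0.28 to 1.65) and 3.09-fold above them for Nefm-201 (1.96 to 4.97), both on fewer than 100 counts per group.

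**Figure D4:**
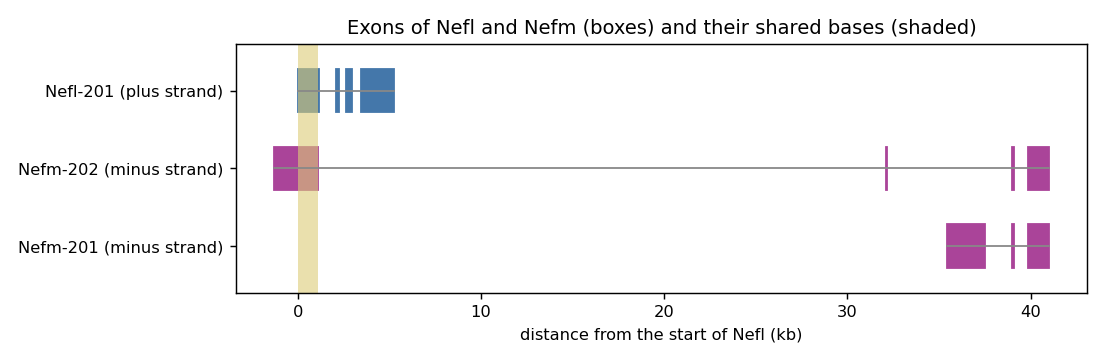
Exons (boxes) of Nefl and of both Nefm transcripts by distance in kb from the start of Nefl, with introns as lines. The shaded stretch is the 1108 bases shared by the first exon of Nefl-201 and the last exon of Nefm-202, and Nefm-201 lies outside it.

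The neurofilament genes were not accompanied by a full set of nerve cell genes. Of 14 neural markers, Snap25, Syt1, Elavl4 and Rbfox3, which neurons use for synaptic release and RNA processing, had 0 counts in every library, and Nefh, the heavy neurofilament subunit, was at or below 0.349 CPM. The sum of the 14 was nevertheless 304 to 309 CPM in myoblasts, 57.8 to 63.9 CPM in myotubes and 80.6 to 84.7 CPM in reserve cells. Most of this sum came from Tubb3, Stmn2, Gap43 and Uchl1. Tubb3, a neuronal β-tubulin, had 165 and 157 CPM in myoblasts, 17 and 15.1 in myotubes, and 28.9 and 30.1 in reserve cells. Gap43, a membrane protein of growing axons, had 34.4 and 38.1 CPM in myoblasts, 0 and 0.349 in myotubes, and 0.857 and 0.931 in reserve cells. Stmn2, a microtubule regulator of growing axons, kept more of its level, with 83.2 and 83.7 CPM in myoblasts, 34.1 and 39.9 in myotubes, and 44.6 and 45.9 in reserve cells, and was the main part of the sum outside myoblasts. Uchl1, a ubiquitin hydrolase abundant in neurons, had 17.9 and 15.7 CPM in myoblasts, 1.42 and 2.5 in myotubes, and 1.61 and 1.55 in reserve cells. Of the 6 neural markers with enough counts to be tested, 5 were lower in myotubes than in myoblasts and 5 lower in reserve cells (edgeR quasi-likelihood test, Benjamini-Hochberg adjusted p below 0.05). Of all 15467 genes tested, 32.7% were called lower in myotubes than in myoblasts and 21.8% lower in reserve cells than in myoblasts. What part cells with these transcripts had in the Nefl and Nefm counts was not tested.

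Plectin (Plec, chr15:76170974-76232574, minus strand) had 1762 and 1702 CPM in myoblasts, 2245 and 2250 CPM in myotubes, and 1683 and 1809 CPM in reserve cells. Myoblasts and reserve cells overlapped (log2 0.01, −0.07 to 0.1). Myotubes were 1.3-fold above myoblasts (log2 0.38, 0.29 to 0.46) and 1.29-fold above reserve cells (log2 0.36, 0.28 to 0.45), but these differences depend on the scale. With library totals the log2 changes were smaller, at 0.1 and 0.16. In TPM myotubes, at 278 and 282, were below the myoblast libraries, at 296 and 286, and overlapped the reserve cell libraries, at 272 and 299.

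What differed more than its sum was the share of Plec-206. This transcript was assigned 33.4% and 29.1% of the Plec counts in myoblasts, 77% and 70.7% in myotubes, and 54.4% and 61.9% in reserve cells. These shares rest on the estimated division of reads among the 22 annotated Plec transcripts, of which 19 had counts. The groups did not overlap, and their means (31.3%, 73.8% and 58.1%) lay further apart than the 4.32 to 7.53 percentage points between replicates. This describes 2 libraries a group, and the shares were not tested. In CPM, Plec-206 was 589 and 496 in myoblasts, 1729 and 1591 in myotubes, and 915 and 1120 in reserve cells. All other Plec transcripts together were lower outside myoblasts, with 1173 and 1207 CPM in myoblasts, 516 and 659 in myotubes, and 768 and 689 in reserve cells. Plec-206 is the only annotated transcript that starts at its first exon (chr15:76229358-76229497), whose coding bases are printed above.

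The other first exons could not be ranked in myoblasts. Plec-205 and Plec-207 share a first exon, as do Plec-202 and Plec-218, so their single shares are parts of a first exon's total. That of Plec-205 and Plec-207 held 7.88% and 25.8% in myoblasts, 7.46% and 13.3% in myotubes, and 18.2% and 8.44% in reserve cells. That of Plec-202 and Plec-218 held 4.63% and 18.6%, 14.3% and 15.7%, and 7.62% and 16.1% in the same order. Plec-201 was assigned 47.8% of the Plec counts in myoblast replicate 1 and 5.84% in replicate 2, while Plec-218 had 3.95% and 18.3%, Plec-204 had 5.77% and 15.8%, and Plec-207 had 6.8% and 22.1%. These transcripts have nearly all of their exons in common and differ mainly at the 5′ end. In myotubes Plec-201 and Plec-204 were both below 1%, and Plec-205, Plec-202 and Plec-218 held 7.22% and 12.7%, 6.74% and 10.3%, and 7.57% and 5.44%. In reserve cells Plec-201 held 10.5% and 8.91% and Plec-204 8.74% and 4.47%. Plec-201 and Plec-204 were thus below their other libraries in both myotube libraries, although how much each held in myoblasts was not fixed by these data. Shares per length differed from shares of counts by less than 1 percentage point for each of these transcripts.

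**Figure D5:**
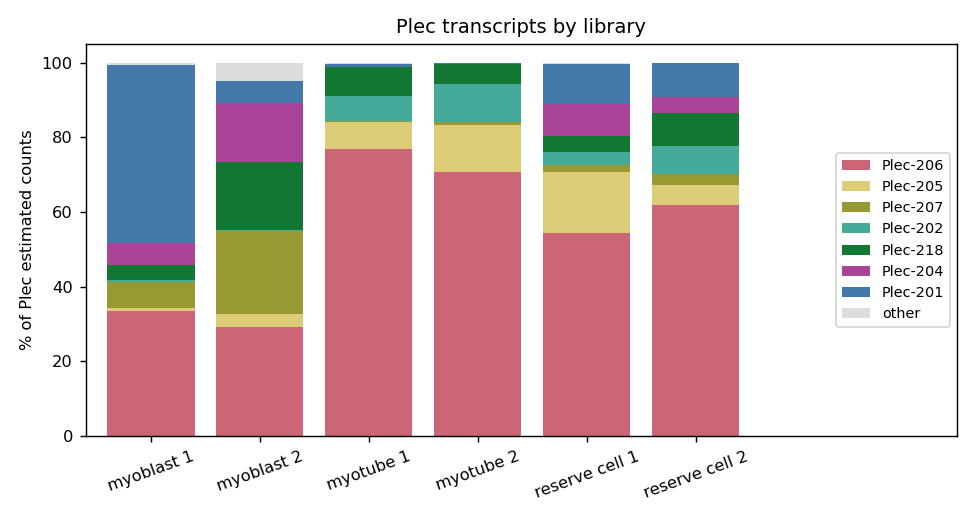
Percent of the estimated Plec counts assigned to each transcript in the 6 libraries. Plec-206 takes 70.7% and 77% in myotubes against 29.1% and 33.4% in myoblasts, and the split of the remainder differs between the myoblast replicates.

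For each member the genes with the closest profile were sought, by Euclidean distance between log2 CPM (prior count 2) of the 6 libraries, each centred on its own mean. The profile of Des was nearest to that of Erbb2 (distance 0.081), at 53.8 and 54.1 CPM in myoblasts and 75.8 and 80.4 CPM in reserve cells, and then to Tuba4a (0.174). Vim was near to Ywhah (0.145), Nes was nearest to Stx16 (0.053) and Sirt2 (0.063), and Sync to Traf4 (0.102) and Hip1 (0.135). Plec was nearest to Sorbs3 (0.037) and Tmcc1 (0.046). The distances were larger for the members with few counts in some group. Synm was nearest to Npc1l1 (0.309) and Paxx (0.458), Nefl to Prl2c3 (1.28) and Prl2c2 (2.12), which are near-identical copies of one family and may share reads, and Nefm to Igsf5 (1.31) and Ngfr (1.41). These are likenesses over 3 groups of 2 libraries.

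The genes that work with the filaments were drawn from 6 lists of 62 genes, none of them a member, of which 47 had enough counts to be tested. Calls are edgeR's quasi-likelihood test at a Benjamini-Hochberg adjusted p below 0.05 over all genes. In myotubes against myoblasts 25 of the 47 were higher and 15 lower, where 32.6% of all genes tested were higher and 32.7% lower. In reserve cells against myoblasts 17 were higher and 16 lower, against 24.3% and 21.8% of all genes. In myotubes against reserve cells 22 were higher and 9 lower, against 27.2% and 28.4% of all genes. With library totals the split for the last comparison was 16 higher and 13 lower. The median log2 fold change of the 47 was 0.54, 0.1 and 0.39 in the 3 comparisons, beside 0, 0.01 and −0.01 for all genes.

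The chaperones and turnover factors of filaments were mostly higher in myotubes. Of 9 tested, 7 were higher and 2 lower against myoblasts (median log2 0.6), and 8 were higher and 0 lower against reserve cells. Over all genes tested, 32.6% were higher and 32.7% lower against myoblasts, and 27.2% and 28.4% against reserve cells. Cryab, the small heat shock protein that binds desmin, had 145 and 144 CPM in myoblasts, 1063 and 1080 in myotubes, and 352 and 344 in reserve cells. It rose by a log2 of 2.89 ± 0.0372 (SE) in myotubes over myoblasts (adjusted p = 1.9e-10, edgeR) and by 1.27 ± 0.0355 in reserve cells over myoblasts (adjusted p = 3.8e-08, edgeR). Hspb8, a partner of Bag3 in clearing misfolded proteins, rose from 75.4 and 71.7 CPM in myoblasts to 529 and 507 CPM in myotubes (adjusted p = 1.2e-09, edgeR) and to 162 and 159 CPM in reserve cells (adjusted p = 4.9e-07, edgeR). Hspb1 fell in both, from 706 and 726 CPM in myoblasts to 351 and 371 in myotubes (adjusted p = 1.6e-07, edgeR) and 212 and 208 in reserve cells (adjusted p = 1.8e-08, edgeR), so that the small heat shock genes did not all move one way.

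The anchors that hold filaments at Z-discs and the membrane were higher in 8 and lower in 3 of 13 in myotubes over myoblasts, and higher in 6 and lower in 3 in reserve cells over myoblasts. Over all genes tested, 32.6% were higher and 32.7% lower in the first comparison, and 24.3% and 21.8% in the second. The 23.1% of anchors lower in reserve cells was near that last share. Actn2, the α-actinin of Z-discs, had 1.17 and 1.57 CPM in myoblasts, 336 and 325 in myotubes, and 74.9 and 79.2 in reserve cells (adjusted p = 2.6e-10 for myotubes over myoblasts, edgeR). Dmd, which encodes dystrophin, had 0 counts in both myoblast libraries, 65.2 and 85.3 CPM in myotubes, and 16.3 and 19 CPM in reserve cells. Set against a floor of 3 counts over the group, this is at least 988-fold higher in myotubes and at least 228-fold higher in reserve cells. Dag1, the dystroglycan gene, rose by about the same amount in both, from 353 and 359 CPM to 1098 in both myotube libraries and to 1120 and 1126 in reserve cells (log2 1.62 and 1.66), and between the latter groups the difference was −0.03 ± 0.0299 (SE). Zyx, a focal adhesion protein, fell from 1015 and 998 CPM in myoblasts to 170 and 163 in myotubes (adjusted p = 7.3e-10, edgeR) and to 548 and 578 in reserve cells (adjusted p = 9.2e-07, edgeR).

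The list of linkers held relatives of plectin (plakins) and also proteins of cell junctions such as Jup and Pkp2. Of its 8 tested genes, 3 (Jup among them) were higher and 1 (Pkp2) lower in myotubes over myoblasts. In myotubes over reserve cells 4 were higher and 0 lower. The 37.5% higher than in myoblasts was near the 32.6% of all genes tested, of which 32.7% were lower. Against reserve cells 27.2% of all genes were higher and 28.4% lower. Macf1, a plakin that bridges actin and microtubules, rose from 774 and 818 CPM in myoblasts to 1788 and 1889 in myotubes (log2 1.21, adjusted p = 9.2e-06, edgeR). Dst, another plakin, rose by a log2 of 0.94 in myotubes (adjusted p = 1.2e-04, edgeR) and by 0.8 in reserve cells (adjusted p = 6.4e-04, edgeR). Jup, which encodes plakoglobin of cell junctions, rose by a log2 of 1.31 in myotubes (adjusted p = 1.6e-08, edgeR) and 0.76 in reserve cells (adjusted p = 1.0e-06, edgeR). Pkp2, a desmosomal plakophilin, fell from 29 and 28.1 CPM in myoblasts to 11.1 and 10.4 CPM in reserve cells (adjusted p = 2.3e-05, edgeR) and less in myotubes (21.9 and 20.9 CPM, adjusted p = 0.011, edgeR).

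The kinases known to phosphorylate filament proteins, those of mitosis first among them, were mostly lower outside myoblasts. Of 9 kinases and activators, 6 were lower and 2 higher in myotubes over myoblasts, and 7 were lower and 0 higher in reserve cells over myoblasts. Over all genes tested, 32.7% were lower and 32.6% higher in the first comparison, and 21.8% and 24.3% in the second. Plk1 fell from 128 and 121 CPM in myoblasts to 8.67 and 6.62 in myotubes (adjusted p = 1.9e-08, edgeR) and to 36.3 and 37.6 in reserve cells (adjusted p = 2.7e-06, edgeR). Aurkb fell by 3.66 on the log2 scale in myotubes (adjusted p = 7.3e-09, edgeR) and Cdk1 fell by 3.78 (adjusted p = 7.9e-07, edgeR), and each was lower in myotubes than in reserve cells (adjusted p = 1.4e-07 and 2.7e-05, edgeR). Pak1, which is not a mitotic kinase, fell by 1.43 on the log2 scale in myotubes (adjusted p = 4.2e-07, edgeR) and by 0.21 in reserve cells (adjusted p = 0.0364, edgeR).

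The nuclear lamins aside, which were not examined here, few other intermediate filament genes had enough counts to be tested. Of 8 listed beside the keratins this held for 3. Iffo1, a filament-related gene of the nuclear interior, rose from 62.1 and 63.4 CPM in myoblasts to 309 and 299 in myotubes (adjusted p = 3.8e-09, edgeR) and 175 and 174 in reserve cells (adjusted p = 1.0e-07, edgeR). Iffo2 fell in both (log2 −0.61 and −0.65). Bfsp2, a lens filament gene, had 2 counts in myoblasts and 25 in myotubes, a ratio of 15.5 (3.87 to 135, counting error only). Gfap, Prph, Ina, Nefh and Bfsp1 were each at or below 0.553 CPM in every library.

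Of 14 keratins 5 were tested, and 3 of these were higher and 2 lower in myotubes over myoblasts, beside 32.6% and 32.7% of all genes tested. Krt80 had 84.2 and 80.1 CPM in myoblasts, 115 and 110 in myotubes, and 136 and 134 in reserve cells (adjusted p = 2.2e-04 and 2.9e-05 against myoblasts, edgeR). Krt19 was lowest in reserve cells, at 3.73 and 3.05 CPM against 30.7 and 34.3 in myoblasts and 23.2 and 21 in myotubes. It was 2.7 ± 0.156 (SE) higher on the log2 scale in myotubes than in reserve cells (adjusted p = 2.0e-06, edgeR). Krt14 had 3.67 and 5.11 CPM in myoblasts, 1.63 and 0.93 in myotubes and 7.56 and 7.24 in reserve cells, and was lower in myotubes than in either other group (adjusted p = 0.00231 and 4.2e-04, edgeR). Krt10 rose from 2.8 and 1.52 CPM to 4.69 and 6.57 CPM in myotubes (adjusted p = 0.00987, edgeR). The keratin pair of simple epithelia, Krt8 and Krt18, had at most 0.202 CPM and 0 counts.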

How the data were processed

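Poly(A) RNA of 6 C2C12 libraries was sequenced. The authors aligned paired reads to mm10 with HISAT2, used SAMtools and StringTie, named DESeq2 for differential expression, and deposited an estimated count per transcript as whole numbers. The sources used here give no versions, annotation release or strand. The deposited series table lists the same libraries and was not used.

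Transcripts were summed to genes through GENCODE M21, which paired 141374 of 142604 identifiers (the other 1230 held 0.375% to 0.872% of a library). All libraries were fitted together in edgeR 4.0.16 (R 4.3.3) by quasi-likelihood, after filterByExpr at a minimum count of 10 and TMM scaling. P-values were adjusted by Benjamini-Hochberg over 15467 genes, with a threshold of 0.05. They set a group difference against the spread between replicate cultures. That spread was estimated over all 6 libraries and partly shared across genes, with 2 cultures a group. TPM were computed from counts and annotated transcript lengths. Standard errors and 95% intervals of fold changes are approximate. They were derived from the fold change and the F statistic of the test, with a t quantile, since edgeR does not report them. Intervals on count ratios are exact at 95%, and floors are 3 counts.

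The members and lists were chosen with earlier results of these data known. Named partner genes are the 4 of each list with the smallest adjusted p in any comparison. Some genes that the naming rules select are not reported here. Transcripts are described where they held at least 10% of a member's counts in a library. Genes under the filter and single neural markers were named after their values were seen. Alternatives were DESeq2 1.42.0, relative log expression (RLE) factors, library totals, no filter, at least 10 CPM in 2 libraries, only the 4 libraries compared, a replicate block, each library left out, protein-coding transcripts alone, per-length shares and, chosen after seeing the data, Nefm-201 alone and partner genes changed at least 2-fold.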

Additional observations from a re-analysis of the deposited data

How the results depend on the processing

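The counts of all genes called were within 1.5 times the main ones under each alternative run, and so were the partner counts with 5 exceptions, all from asking for a change of at least 2-fold. That setting, added after seeing the data, left 16 higher and 7 lower in myotubes over myoblasts, 9 and 7 in reserve cells over myoblasts, and 11 higher in myotubes over reserve cells, fewer by its construction. Library totals moved the share of higher genes among those called from 50% to 36.6%, from 52.7% to 45.5% and from 48.8% to 34.1% in the 3 comparisons, and the median log2 change by up to 0.27.

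Of 338 recomputed member fold changes 13 moved by over 1.5-fold, 8 of them for Nefl, whose counts outside myoblasts were 2 and 3, 3 for Nefm with Nefm-201 alone (log2 −3.74, −5.37 and 1.63), and 2 for Synm without myoblast replicate 2. In 8 cases the value changed sign or came to 0, and these were Nefl in myotubes over reserve cells and Plec in reserve cells over myoblasts (−0.06 with library totals). Leaving out single libraries gave 8943 to 10023, 5501 to 7324 and 7183 to 8264 called genes for the 3 comparisons, in the order above.

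Like-numbered libraries of different groups showed little shared deviation from their group means, with correlations of 0.002, 0.04 and −0.032. Whether they came from the same cultures is not settled by this, with 2 libraries a group. With a replicate block 9912, 6954 and 8383 genes were called, against 10096, 7133 and 8598. With 2 libraries a group, depth limits Synm, Nefm and Nefl most, and transcript splits of Plec and Sync varied more between replicates than gene sums did.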
